A study of Mus musculus with 16 samples.

Results

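Mitosis and G2/M genes are the transcripts that a cell needs to enter mitosis, align and separate its chromosomes and divide, and their joint level is a common readout of cells in division. A list of 34 such gene symbols was matched to the gene symbols of the deposited comparison tables, and 33 of the 34 had a row among the 30819 genes of the expression matrix. The remaining gene was not analysed here. All 33 passed the filter on low values in each comparison described below (a linear value of at least 10 in at least 4 libraries), so the counts cover every measured member. The list was drawn up from function and not from these values, but with earlier results of these data known.

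The samples were macrophages and monocytes sorted from MN/MCA1 sarcomas, a transplanted mouse fibrosarcoma, 21 days after the tumour cells were injected into C57BL/6J mice. Host mice were either wild type or C3-/-, lacking the complement component on which the complement pathways converge, and the labels state no age for the mice. Within the fraction that was CD45+ and CD11b+ but negative for Ly6G and CD11c, monocytes were the Ly6C+ F4/80- cells and macrophages the F4/80+ Ly6C- cells. Mice 1 to 4 were wild type and mice 6 to 9 were C3-/-, and each mouse gave a library of each cell type, so that 4 groups of 4 libraries came from 8 animals. The C3 genotype is that of the host. The labels name no change to the injected tumour cells, and they do not say whether the wild-type mice were littermates of the C3-/- mice.

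Cyclin-dependent kinase 1 with its B-type cyclins drives entry into mitosis, and FOXM1 with the MYB-MuvB complex switches on the genes of this phase late in the cell cycle. Aurora and Polo kinases then build the spindle, the kinetochore couples chromosomes to microtubules, and the spindle checkpoint holds back the anaphase-promoting complex until every chromosome is attached. Monocytes that enter a tissue from the blood are mostly non-dividing cells, whereas macrophages can divide within tissues and tumours.

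The 16 libraries held 18689372 to 29049351 reads, recovered from the deposited log2 values as described under processing. Normalised reads are these reads divided by the size factor of the library. The sorted populations matched their labels in the sorting antigens: Ly6c2, which encodes the Ly6C antigen, averaged 16216 normalised reads in wild-type monocytes against 10.3 in wild-type macrophages, and Adgre1, which encodes F4/80, averaged 5928 against 27262. Of 9 macrophage markers, limma called 8 higher in wild-type macrophages than in monocytes. Fcgr1 was called lower, at 7145 reads against 11753. All 7 monocyte markers were called lower in wild-type macrophages. C3 reads remained in C3-/- libraries at a lower level (log2 difference -1.22 in monocytes and -1.13 in macrophages, limma adjusted p = 8.81e-08 and 0.000215). A replicate is a mouse. No pair of libraries within a group agreed within sampling noise.

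Macrophages held more of every measured mitosis gene than monocytes did, in both genotypes. In wild-type tumours 33 of 33 genes were higher in macrophages by the limma test at an adjusted p under 0.05, where 31.7% of the 12769 genes tested were higher. In C3-/- tumours 33 of 33 were again higher, against a background of 31% of 12772 genes. The median difference of the 33 genes was 1.54 in wild type and 2.03 in C3-/- on the deposited log2 scale, and that of all genes tested was -0.01 and 0.00. The deposited scale draws differences together: on the recovered reads, the same medians were 2.20 and 3.04 by limma with voom. Lower levels of these transcripts in a sorted population can reflect fewer dividing cells or less RNA per dividing cell, and bulk libraries cannot tell these apart.

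Summed over the 33 genes, the macrophage libraries of wild-type mice 1 to 4 held 39723, 28908, 34012 and 32819 normalised reads, and their monocyte libraries held 12868, 6747, 9348 and 6086. In C3-/- mice 6 to 9 the macrophage sums were 38984, 34977, 23904 and 33037 and the monocyte sums 4949, 5912, 5539 and 4599. The lowest macrophage library thus lay above the highest monocyte library. Within each mouse, the macrophage sum was 3.09, 4.28, 3.64 and 5.39 times the monocyte sum in wild type and 7.88, 5.92, 4.32 and 7.18 times in C3-/-. In all 8 mice, each of the 33 genes was higher in the macrophage library than in the monocyte library.

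**Figure D1:**
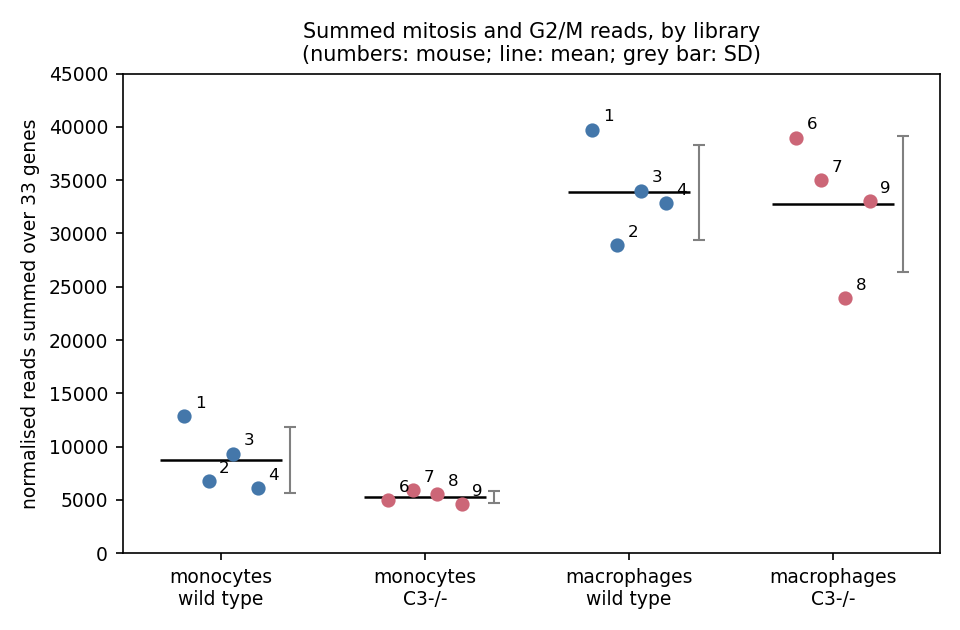
Normalised reads summed over the 33 mitosis and G2/M genes (vertical axis) in each of the 16 libraries, by cell type and genotype. Points are libraries with their mouse number, lines are means and grey bars are SD (n = 4). Macrophage libraries lie between 23904 and 39723, above all monocyte libraries, and the 4 C3-/- monocyte libraries lie between 4599 and 5912, below the lowest wild-type monocyte library at 6086.

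Among the proliferation markers, Mki67 encodes the Ki-67 antigen that coats mitotic chromosomes, and Top2a encodes the topoisomerase that untangles sister chromatids. Mki67 gave 1478, 1049, 1493 and 1531 normalised reads in wild-type macrophages and 452, 285, 269 and 254 in the monocytes of the same mice, a difference of 1.54 ± 0.13 (SE, n = 4 and 4, limma adjusted p = 4.89e-06). Top2a gave 3050, 2007, 2461 and 2204 reads in macrophages and 1037, 416, 605 and 317 in monocytes, a difference of 1.54 ± 0.23 (limma adjusted p = 0.00053). Neither gene had a monocyte library within the macrophage range. In C3-/- mice the differences were 2.00 ± 0.12 for Mki67 and 2.19 ± 0.13 for Top2a.

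The regulators of mitotic entry differed by similar amounts. Ccnb2, which encodes a B-type cyclin, had the highest level per kilobase of exon of all members in macrophages (1040 normalised reads per kilobase in wild type and 932 in C3-/-). Its reads were 1883, 1351, 1661 and 1474 in wild-type macrophages and 426, 145, 421 and 259 in wild-type monocytes, 5.09 times as many on average in macrophages (log2 difference 1.76 ± 0.21, limma adjusted p = 9.94e-05). In C3-/- mice it gave 1513, 1645, 1209 and 1342 in macrophages and 107, 108, 179 and 69.9 in monocytes, 12.3 times as many (2.50 ± 0.14, limma adjusted p = 9.42e-08). The groups did not overlap in either genotype. Cdk1, the kinase itself, had 3.39 times as many reads in macrophages in wild type and 5.93 times in C3-/-, Ccna2, the cyclin of S phase and G2, 3.68 and 7.32 times, Ccnb1 3.48 and 8.04 times, and Foxm1, the transcription factor of this phase, 3.61 and 8.74 times. The value for Ccnb1 is uncertain, because 4 pseudogenes match its transcript at 95% identity or more and reads may be split between the copies.

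In the group of mitotic kinases and the chromosomal passenger complex, all 6 genes were higher in macrophages in both genotypes, with medians of 1.65 in wild type and 2.11 in C3-/-. Birc5, which encodes the survivin subunit of the passenger complex, gave 1543, 1129, 1426 and 1314 reads in wild-type macrophages and 346, 154, 224 and 150 in wild-type monocytes (difference 1.93 ± 0.17, limma adjusted p = 5.92e-06). Cdca8 (borealin) of the same complex and its kinase Aurkb differed by 1.75 and 1.27 in wild type. The spindle kinases Aurka and Plk1 differed by 1.19 and 1.64, and Tpx2, which activates Aurora A on the spindle, by 1.66.

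The spindle checkpoint genes Bub1, Bub1b, Ttk and Mad2l1 differed within a narrow range in wild type, from 1.45 to 1.55, and from 1.93 to 2.13 in C3-/-. Mad2l1 has a pseudogene of 95% identity or more, so its level is uncertain. Of the kinetochore genes, the outer kinetochore subunits Nuf2, Ndc80 and Spc25 differed by 1.99, 1.64 and 1.57 in wild type, and 1.99 for Nuf2 was the highest value of the 33 genes there. Cenpe, a kinetochore motor, and Cenpf, a large kinetochore protein, differed by 1.67 and 1.61. Kif2c, which removes tubulin from microtubule ends, and Nusap1, which bundles spindle microtubules, differed by 1.95 and 1.63.

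The cytokinesis genes Kif20a, Kif23, Prc1, Ect2 and Racgap1 had a median of 1.45 in wild type and 1.70 in C3-/-, with the lowest value at Kif23 (1.08 and 1.26), a motor of the central spindle. The ubiquitination genes Cdc20, which activates the anaphase-promoting complex, Ube2c, the E2 enzyme of that complex, and Cdca3 differed by 1.68, 1.19 and 1.92 in wild type and by 2.23, 1.71 and 2.53 in C3-/-. The value of 2.53 for Cdca3, a gene required for entry into mitosis, was the highest of the 33 genes in C3-/-. The library kit does not mark strand, and exons of Kif20a and Ube2c share 29.3% and 22.8% of their length with the opposite-strand genes Cdc23 and Tnnc2, so part of their reads may come from those genes.

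Cenpa stood apart from the other members. It encodes the histone H3 variant that marks centromeres, and it gave 1516, 1247, 1433 and 1420 normalised reads in wild-type macrophages and 1168, 1124, 897 and 996 in wild-type monocytes. The groups did not overlap, but the mean ratio was 1.34 and the log2 difference 0.31 ± 0.07 (limma adjusted p = 0.0019), the lowest of the 33 genes. In C3-/- mice it gave 1569, 1516, 1138 and 1101 reads in macrophages and 894, 1205, 747 and 922 in monocytes. These groups overlapped, the only such case among the 33 genes, with a difference of 0.36 ± 0.11 (limma adjusted p = 0.0176, and 0.105 without mouse 6). Of the 33 genes, 33 in wild type and 32 in C3-/- had macrophage values above all monocyte values, where 29.8% and 28.6% of all genes tested did so. Per kilobase of exon, Cenpa ranked second of the 33 genes in wild-type monocytes (179 reads, behind Ccnb2 at 204) and first in C3-/- monocytes (161 reads, ahead of Racgap1 at 78.9).

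**Figure D2:**
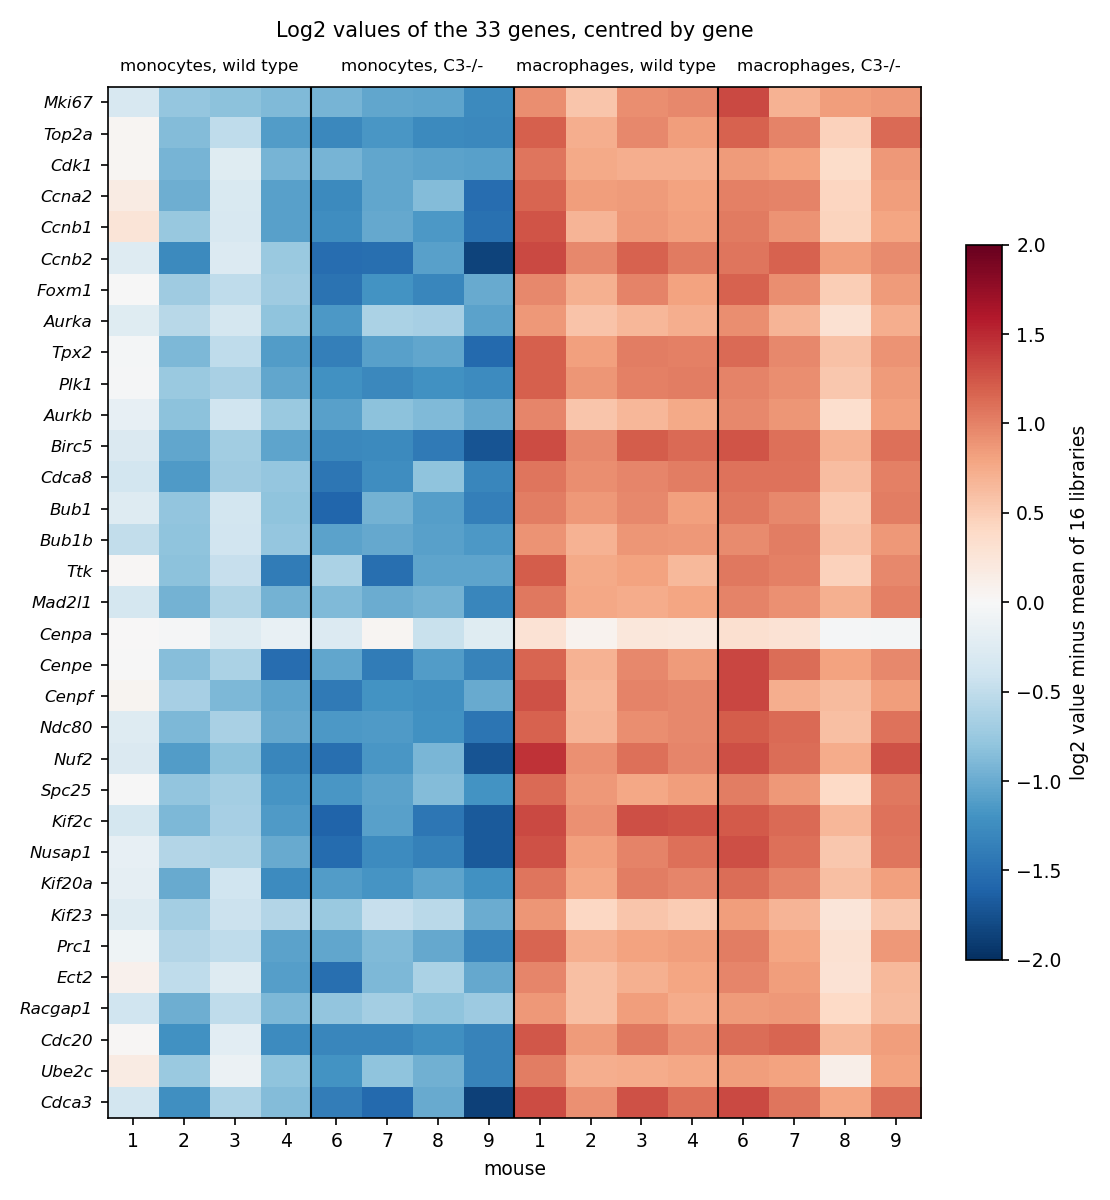
Deposited log2 values of the 33 genes in the 16 libraries, centred on the mean of each gene over all libraries (colour scale from -2 to 2). Columns are mice within the 4 groups and rows are genes ordered by role. All macrophage libraries are above the gene mean for nearly every gene, Cenpa is close to its mean throughout, and wild-type monocyte library 1 is the least blue of the monocyte libraries.

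In monocytes, C3-/- mice had lower mean log2 values than wild-type mice for 33 of 33 genes, but only 4 fell by the limma test at an adjusted p under 0.05. Those were Nusap1, Bub1b, Foxm1 and Bub1, and none rose. Over all 12867 genes tested, 1.92% were called lower and 1.4% higher. The median difference of the 33 genes was -0.53, with a range from -0.86 to -0.06, beside -0.01 for all genes tested. An unadjusted p under 0.05 was found for 24 of the 33 genes and for 2240 of all 12867. On the recovered reads the median of the 33 genes was -0.87. The authors' deposited table gave lower values in C3-/- for 23 of the 33 genes at its own adjusted p under 0.05, and higher values for none, against 5.63% and 3.8% of the 14087 genes with an adjusted value there, and its median was -0.94.

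Nusap1 gave 277, 180, 176 and 112 normalised reads in the monocytes of wild-type mice 1 to 4 and 60.1, 84.4, 76.2 and 50.4 in those of C3-/- mice 6 to 9. The C3-/- mean was 36.4% of the wild-type mean, and the groups did not overlap (log2 difference -0.86 ± 0.17, SE, n = 4 and 4, limma adjusted p = 0.0151). Bub1b, whose product BubR1 is the checkpoint protein that binds and inhibits CDC20, gave 552, 406, 628 and 421 reads in wild type and 299, 317, 296 and 278 in C3-/-. Its C3-/- libraries lay close together and below all wild-type libraries, at 59.3% of the wild-type mean (-0.48 ± 0.10, limma adjusted p = 0.0179).

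Foxm1 gave 269, 130, 161 and 132 reads in wild-type monocytes and 53.5, 74.7, 66.6 and 95.1 in C3-/- monocytes, at 41.9% of the wild-type mean (-0.76 ± 0.16, limma adjusted p = 0.027). Bub1, the kinase that recruits checkpoint proteins to the kinetochore, gave 336, 193, 301 and 192 reads in wild type and 76.1, 164, 138 and 102 in C3-/-, at 47.1% (-0.69 ± 0.17, limma adjusted p = 0.0461). All C3-/- libraries lay below all wild-type libraries for both genes. Across 13 alternative settings the call was lost 1 time for Nusap1, 3 times for Bub1b, 5 times for Foxm1 and 8 times for Bub1, with highest adjusted p-values of 0.0541, 0.0606, 0.0817 and 0.142.

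**Figure D3:**
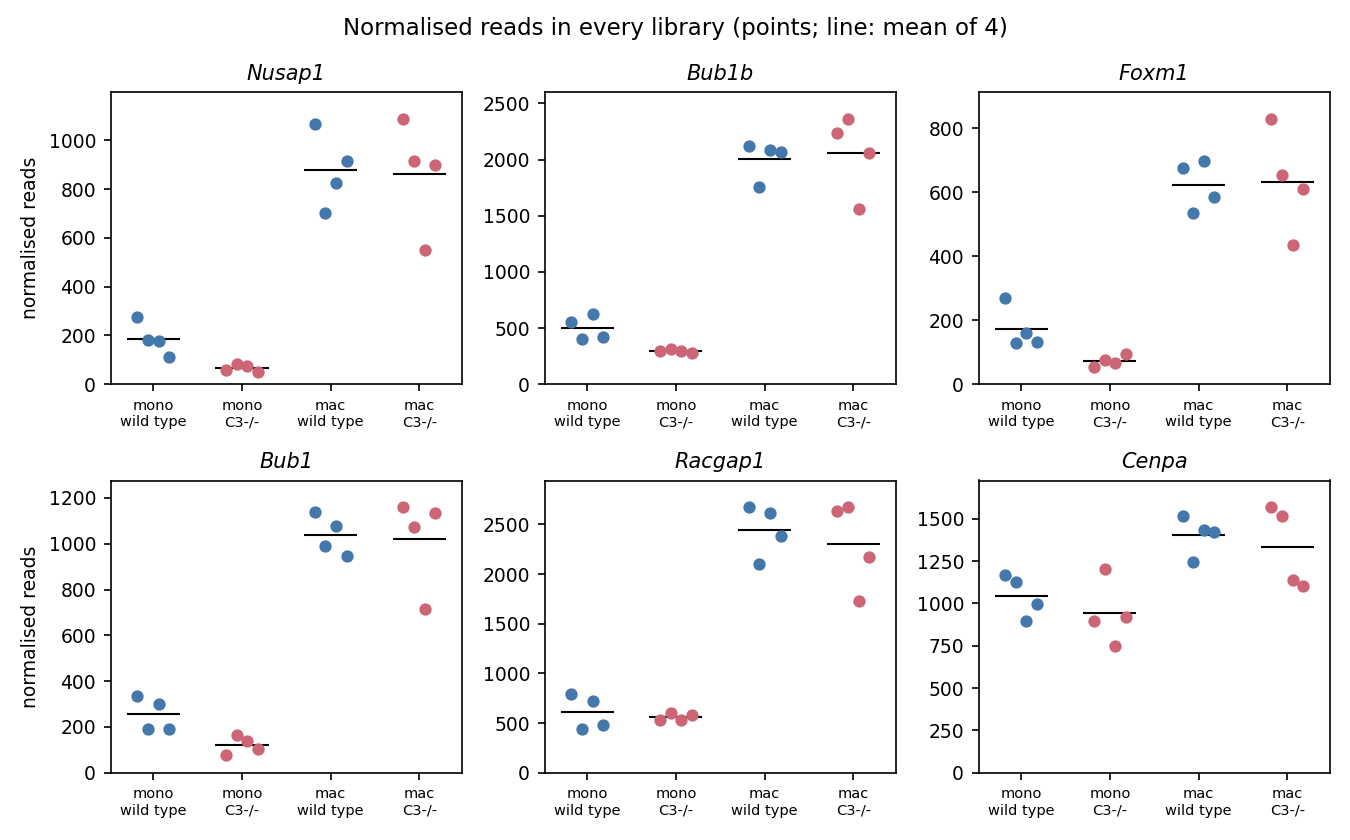
Normalised reads (vertical axes, starting at 0) of Nusap1, Bub1b, Foxm1, Bub1, Racgap1 and Cenpa in every library, by group. Points are libraries and lines are means of 4. In monocytes the first 4 genes have all C3-/- points below all wild-type points, whereas Racgap1 and Cenpa overlap, and in macrophages all 6 genes overlap between genotypes.

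Including these 4 genes, 9 of the 33 had all C3-/- monocyte libraries below all wild-type monocyte libraries, and none had them above, where 6.13% of all genes tested were below and 4.97% above. The other 5 were Mki67, Top2a, Plk1, Birc5 and Ndc80. Top2a gave 1037, 416, 605 and 317 reads in wild type and 263, 301, 268 and 262 in C3-/- (log2 difference -0.64 ± 0.21, limma adjusted p = 0.141). Plk1 gave 253, 122, 134 and 87.2 against 71.4, 63.9, 70.4 and 68.2 (-0.63 ± 0.18, limma adjusted p = 0.082), and Birc5 gave 346, 154, 224 and 150 against 117, 118, 99.4 and 68.2 (-0.66 ± 0.17, limma adjusted p = 0.0694). In each of these 3 genes wild-type mouse 1 was the highest library. Mki67 differed by -0.38 and Ndc80 by -0.53, with limma adjusted p-values of 0.126 and 0.102.

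Other members had mean differences as large as those of the called genes but a wider spread. Ccnb2, at 426, 145, 421 and 259 reads in wild-type monocytes and 107, 108, 179 and 69.9 in C3-/- monocytes, had a difference of -0.86 ± 0.23 (limma adjusted p = 0.0876). The lowest wild-type library, mouse 2, lay within the C3-/- range. Ccnb1 differed by -0.75, Kif2c by -0.70, Ube2c by -0.69 and Cdca3 by -0.68, with limma adjusted p-values from 0.0598 for Kif2c to 0.146 for Ccnb1. By role, the median difference was -0.78 for Kif2c and Nusap1, -0.75 for Cdk1, the cyclins and Foxm1, -0.68 for the ubiquitination genes, -0.53 for the kinases and passenger proteins, -0.51 for Mki67 and Top2a, -0.46 for kinetochore proteins, -0.44 for checkpoint proteins and -0.43 for cytokinesis.

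The smallest differences were those of Racgap1 (-0.06 ± 0.12), Cenpa (-0.12 ± 0.10) and Kif23 (-0.19 ± 0.12). Racgap1 and Kif23 encode the subunits of centralspindlin, the complex that organises the midzone in cytokinesis. Racgap1 gave 793, 439, 721 and 480 reads in wild-type monocytes and 533, 597, 529 and 577 in C3-/- monocytes. The C3-/- libraries fell inside the wild-type range, and the 95% interval of the difference ran from -0.31 to 0.20.

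Wild-type monocyte library 1 was the highest of its group for 32 of the 33 genes, and library 4 was the lowest for 24. The median coefficient of variation of the 33 genes was 41.8% in wild-type monocytes, 22.6% in C3-/- monocytes, 15.8% in wild-type macrophages and 21.9% in C3-/- macrophages. Without wild-type monocyte library 1 the median difference was -0.38 and 2 genes were called lower. The count was also 2 without wild-type library 3 or C3-/- library 6, 1 without C3-/- library 8 or 9, and 6 without wild-type library 4.

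Markers of other cells also varied among the monocyte libraries. A list of 12 tumour cell or fibroblast genes, which includes collagens and Sparc, summed to 10107, 4825, 9369 and 5165 normalised reads in wild-type monocytes and to 5774, 6257, 1533 and 7900 in C3-/- monocytes. Wild-type libraries 1 and 3 were highest for both these markers and the mitosis genes. Of the 12 markers, 9 were tested in monocytes and 0 were called by limma in either direction between genotypes (0 at an unadjusted p under 0.05), with negative differences in all 9. In wild-type monocytes the list ranged from Col3a1, at a mean of 3338 reads, Sparc at 1371, Dcn at 925, Col1a2 at 617 and Postn at 549, down to Col1a1, Thy1 and Lum at 6.33, 2.34 and 1.94. C3-/- monocyte library 8 had the lowest marker sum of the monocyte libraries, with a mitosis sum of 5539 that lay within the C3-/- range. Macrophages, with the higher mitosis sums, had the lower marker sums, at 1246 to 3555 in wild type and 276 to 1417 in C3-/-. Red blood cell markers were also lower in C3-/- monocytes, with sums of 579 to 2918 against 2928 to 7158 in wild type, and 0 of 5 called by limma (4 at an unadjusted p under 0.05). Neutrophil markers, 9 genes, summed to 5621 to 7873 in wild type and 4638 to 11568 in C3-/-. Of the 5 tested, 0 were called by limma and 3 had an unadjusted p under 0.05, with a median of -1.40 (S100a8 -2.16, Elane -1.41, Cxcr2 -1.40, S100a9 -1.36, Csf3r 0.12). Csf3r had the highest mean of this list, at 4086 reads in wild type and 4597 in C3-/-, and so was the largest single part of the mean sums. It did not set their spread. In C3-/- its SD was 762 reads, against 2291 for Ngp and 3227 for the sums. Ngp and Camp, of the same list, reached at most 3.71 and 2.57 reads in wild type and ranged from 0 to 4484 and from 0 to 1364 in C3-/-, and were not tested. Dendritic cell markers, 6 genes, summed to 134 to 458 in wild type and 463 to 1178 in C3-/- and did not overlap. Of the 5 tested, Cd209a was called higher (log2 difference 3.66, limma adjusted p = 0.00418). Over the alternative settings its highest adjusted p-value was 0.133, so this call was not kept in all of them. Flt3 and Xcr1 differed by 1.11 and 0.60, and Zbtb46 and Ccr7 by -0.03 and -0.37, all without a call. Cd209a averaged 9.12 reads in wild type and 421 in C3-/-, the highest C3-/- mean of this list. Of all 12867 genes tested in monocytes, 2240 had an unadjusted p under 0.05. The part of all these cells in the monocyte difference was not tested.

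**Figure D4:**
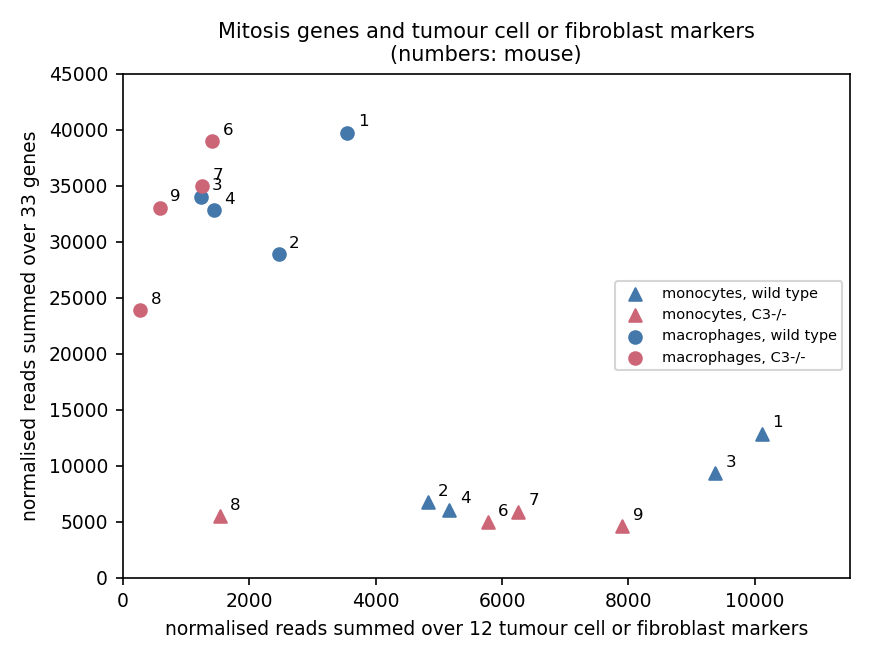
Normalised reads summed over the 33 mitosis genes (vertical axis) against those summed over 12 tumour cell or fibroblast markers (horizontal axis) in each library, with the mouse number. Circles are macrophages and triangles are monocytes. Macrophage libraries have higher mitosis sums at lower marker sums than monocyte libraries, and the wild-type monocyte libraries 1 and 3 are highest in both sums among the monocytes.

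Promoters were available for 28 of the 33 genes in RefSeq (GRCm38.p6), as windows of 250 bases before to 50 bases after the transcription start. They are shown because genes of this phase share known promoter elements: the CHR (TTTGAA), which binds the DREAM and MYB-MuvB complexes, and the CCAAT box (CCAAT), which binds NF-Y. TTTGAA on either strand was present in 21 of the 28 genes (75%) and in 17.9% of all 32851 promoters of that length. CCAAT on either strand was present in 22 of 28 (78.6%) against 37.4%, and both in 19 (67.9%) against 6.95%. Matches to these motifs can overlap only by their end letters. Of 26 TTTGAA matches in the members, 19 (73.1%) began within 50 bases of the start site, as did 25.3% of the matches in all promoters. An E2F-like sequence, GCGGGAA, was in 0 of the 28 and in 4.6% of all promoters.

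The first 3 promoters below are those of genes that fell in C3-/- monocytes and had a window in the table (Foxm1 had none), and Ccnb2, Cdk1 and Plk1 were added after the matches were seen, to show both motifs near the start site. Each is written on the strand of its gene, with matches to CCAAT or TTTGAA on either strand in capitals.
Nusap1, chr2:119618048-119618347, plus strand: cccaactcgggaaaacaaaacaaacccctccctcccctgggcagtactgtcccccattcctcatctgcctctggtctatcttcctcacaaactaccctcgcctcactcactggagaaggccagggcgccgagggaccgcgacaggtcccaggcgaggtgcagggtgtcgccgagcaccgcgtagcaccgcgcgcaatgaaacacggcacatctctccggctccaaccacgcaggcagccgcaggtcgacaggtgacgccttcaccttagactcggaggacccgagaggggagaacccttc
Bub1b, chr2:118597961-118598260, plus strand: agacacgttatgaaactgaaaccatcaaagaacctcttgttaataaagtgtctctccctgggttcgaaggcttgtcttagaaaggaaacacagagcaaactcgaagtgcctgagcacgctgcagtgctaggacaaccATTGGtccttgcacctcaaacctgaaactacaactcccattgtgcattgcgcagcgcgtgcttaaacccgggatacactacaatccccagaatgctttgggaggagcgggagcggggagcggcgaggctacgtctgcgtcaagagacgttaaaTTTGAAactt
Bub1, chr2:127831810-127832109, minus strand: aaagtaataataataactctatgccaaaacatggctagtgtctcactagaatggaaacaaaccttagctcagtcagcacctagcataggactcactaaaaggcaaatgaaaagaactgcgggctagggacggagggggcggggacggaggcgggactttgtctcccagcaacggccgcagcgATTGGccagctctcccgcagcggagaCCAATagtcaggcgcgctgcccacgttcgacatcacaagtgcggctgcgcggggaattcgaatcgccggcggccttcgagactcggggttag
Ccnb2, chr9:70421505-70421804, minus strand: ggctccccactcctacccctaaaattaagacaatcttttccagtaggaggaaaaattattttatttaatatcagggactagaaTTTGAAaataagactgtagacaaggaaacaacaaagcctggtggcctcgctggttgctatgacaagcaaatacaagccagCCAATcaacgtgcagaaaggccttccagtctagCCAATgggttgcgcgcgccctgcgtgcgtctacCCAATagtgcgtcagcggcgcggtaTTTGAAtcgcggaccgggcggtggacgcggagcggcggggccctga
Cdk1, chr10:69352863-69353162, minus strand: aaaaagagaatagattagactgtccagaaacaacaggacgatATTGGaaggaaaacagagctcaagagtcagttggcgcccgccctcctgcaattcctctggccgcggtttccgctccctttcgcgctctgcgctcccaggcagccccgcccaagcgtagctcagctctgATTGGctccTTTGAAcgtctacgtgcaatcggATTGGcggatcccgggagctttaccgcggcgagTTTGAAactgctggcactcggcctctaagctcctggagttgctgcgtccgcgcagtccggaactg
Plk1, chr7:122159185-122159484, plus strand: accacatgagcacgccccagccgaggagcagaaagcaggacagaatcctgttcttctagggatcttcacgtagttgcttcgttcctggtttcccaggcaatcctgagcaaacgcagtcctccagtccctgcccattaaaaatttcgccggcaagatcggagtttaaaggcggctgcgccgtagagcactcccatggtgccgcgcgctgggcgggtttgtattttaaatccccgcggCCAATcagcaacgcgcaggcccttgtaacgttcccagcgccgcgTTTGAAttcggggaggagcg

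The window of Nusap1 held neither motif, that of Bub1 held 2 CCAAT matches and no TTTGAA, and that of Bub1b held both, with TTTGAA beginning at position 41 after the start. In Ccnb2, 3 CCAAT matches began at positions -87, -54 and -21, and TTTGAA matches at positions -167 and 5. In monocytes, the 19 genes with both motifs had a median C3-/- difference of -0.50 and the 9 genes without both had one of -0.66. Between cell types, genes with both motifs had medians of 1.52 in wild type and 1.93 in C3-/-, and genes without both had 1.64 and 2.28. A match describes letters in the window, and binding was not measured.

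In macrophages, none of the 33 genes differed between C3-/- and wild type by the limma test, where 5.7% of all 12568 genes tested were called. An unadjusted p under 0.05 was found for 0 of the 33 genes and for 2540 of the 12568. The authors' deposited table called 0 of the 33 as well, against a background of 3.33% lower and 2.74% higher. The median difference was -0.07, beside 0.00 for all genes tested, with a range from -0.20 for Plk1 to 0.13 for Cenpe. The 95% intervals of the 33 genes lay between -0.52, the lower bound for Ube2c, and 0.41, the upper bound for Mki67 and Cenpe. Nusap1 gave 1066, 704, 825 and 917 reads in wild-type macrophages and 1089, 917, 550 and 898 in C3-/- macrophages (log2 difference -0.04 ± 0.16, limma adjusted p = 0.936). Bub1b gave 2121, 1758, 2089 and 2070 against 2233, 2365, 1562 and 2059 (0.02 ± 0.09, limma adjusted p = 0.955). Foxm1 gave 676, 535, 698 and 587 against 831, 655, 436 and 612. The groups overlapped for all 33 genes, where 13.1% of all genes tested had groups that did not overlap.

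Single mice set the ends of the macrophage ranges. Wild-type library 1 was highest of its group for 31 of the 33 genes, C3-/- library 8 was lowest of its group for 31, and wild-type library 2 was lowest for 27. Without wild-type library 1 the median difference was 0.01, and without C3-/- library 8 it was 0.05. C3-/- macrophage library 8 also had the lowest sum of tumour cell or fibroblast markers (276 reads), and wild-type macrophage library 1 the highest among macrophages (3555 reads). Wild-type macrophage library 2, with the lowest mitosis sum of its group (28908), went the other way. It had 2469 marker reads, above wild-type libraries 3 and 4 (1246 and 1437). C3-/- library 9 had a mitosis sum of 33037 at 588 marker reads. A link between these sums was not tested.

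The difference between the C3-/- effect in monocytes and that in macrophages was tested in all 16 libraries. No member was called at an adjusted p under 0.05 (limma, 0 of 33, where 0.617% of 13134 genes tested were called). An unadjusted p under 0.05 was found for 12 of the 33 and for 1500 of the 13134. The difference of effects was negative for 32 of the 33 genes, with a median of -0.49, beside -0.01 for all genes tested, so the fitted effect was lower in monocytes than in macrophages for these 32. It was -0.83 for Nusap1 (95% interval -1.34 to -0.31, limma adjusted p = 0.164), -0.76 for Foxm1 (-1.23 to -0.28, 0.164), -0.66 for Bub1 (-1.12 to -0.21, 0.217) and -0.49 for Bub1b (-0.78 to -0.20, 0.131). With the mouse as a replicate block, which pairs both libraries of an animal, Bub1b was called (limma adjusted p = 0.034) and the count was 1. Racgap1 was the exception in sign, at 0.02. The wider gap between cell types in C3-/- mice is the same contrast read the other way, since each group of libraries enters both kinds of comparison, and it is no separate result. The 4 calls in monocytes and none in macrophages therefore do not by themselves show a difference between the cell types.

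**Figure D5:**
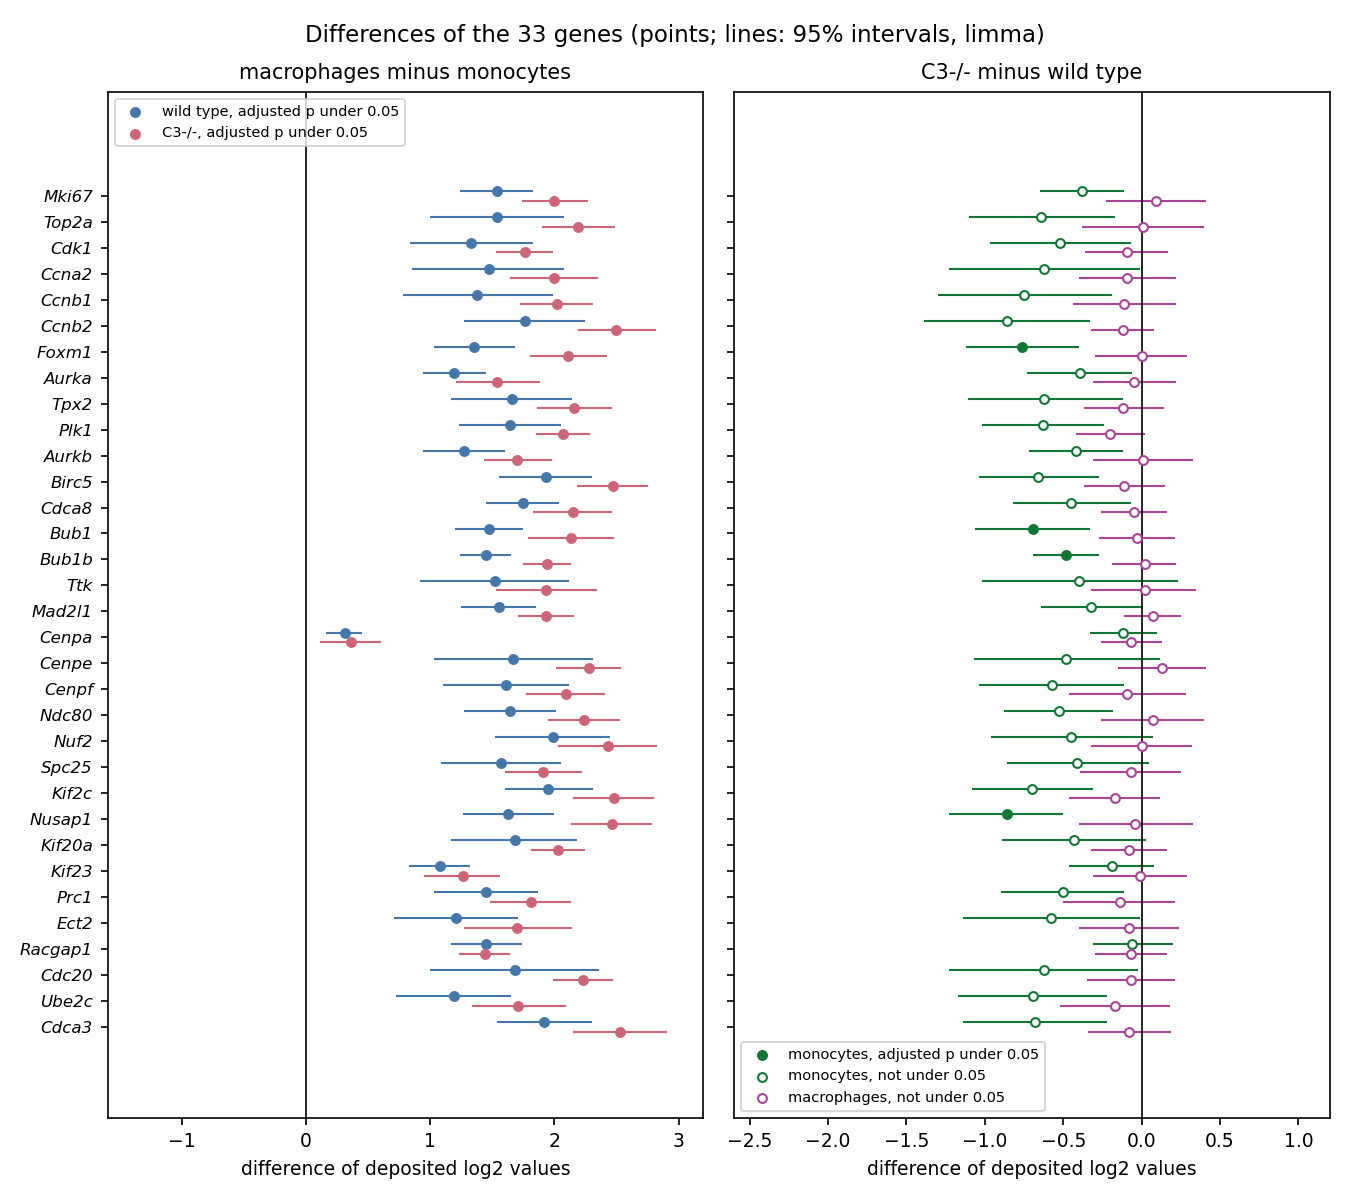
Differences of the deposited log2 values of each of the 33 genes, macrophages minus monocytes in each genotype (left) and C3-/- minus wild type in each cell type (right). Points are limma estimates, filled where the adjusted p was under 0.05, and lines are 95% intervals (4 against 4 libraries). All differences between cell types are above 0, all C3-/- differences in monocytes are below 0 with 4 filled points, and those in macrophages lie around 0.

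Further genes of mitosis, 127 outside the 34, were grouped by role, and 123 were tested. Macrophages were higher than monocytes for 92 and lower for 15 of them in wild-type mice. In C3-/- mice they were higher for 98 and lower for 9. Of all genes tested, 31.7% were higher and 31.7% lower in wild type, and 31% were higher and 29.6% lower in C3-/-. By group, 28 of 29 spindle and cytokinesis genes and 29 of 34 kinetochore and centromere genes were higher in wild-type macrophages, against 7 of 16 subunits and cofactors of the anaphase-promoting complex, of which 3 were lower. Espl1, which encodes the separase that cleaves cohesin, averaged 2076 ± 225 reads (SD, n = 4) in wild-type macrophages and 470 ± 61.8 in wild-type monocytes (log2 difference 1.51 ± 0.07, limma adjusted p = 1.9e-08). Ncapd2, a condensin subunit, averaged 1226 ± 142 and 183 ± 28.4 in C3-/- mice (1.91 ± 0.09, limma adjusted p = 4.63e-09).

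In monocytes, 6 of these 123 genes fell in C3-/- and 1 rose, with a median of -0.24. Of all genes tested there, 1.92% were called lower and 1.4% higher. Hjurp, the chaperone that deposits Cenpa at centromeres, averaged 566 ± 57.2 reads in C3-/- monocytes and 1689 ± 117 in wild-type monocytes (log2 difference -1.11 ± 0.07, limma adjusted p = 1.19e-06). It also fell in C3-/- macrophages, to 916 ± 203 from 1791 ± 140 (-0.71 ± 0.10, limma adjusted p = 0.00221), the only one of the 123 genes called there. In macrophages 5.7% of all genes tested were called. Between cell types, Hjurp was not called in wild type, at 1791 reads in macrophages and 1689 in monocytes (limma adjusted p = 0.345), and was higher in macrophages in C3-/-, at 916 against 566 (0.46 ± 0.10, limma adjusted p = 0.00192). Cdc25b, a phosphatase that activates Cdk1, fell to 315 ± 91.8 from 566 ± 58.4 reads (limma adjusted p = 0.0179), and Knl1, a kinetochore scaffold for Bub1 and Bub1b, to 38.1 ± 10.6 from 92.8 ± 27.3 (limma adjusted p = 0.0244). The gene that rose was Espl1, at 678 ± 55.8 against 470 ± 61.8 reads (0.36 ± 0.08, limma adjusted p = 0.0261), named after its value was seen. In the difference of effects, Rbl2, a pocket protein of the DREAM repressor, was the only one of the 123 called (-0.39 ± 0.08, limma adjusted p = 0.0291). Of all genes tested for that difference, 0.617% were called. Over the alternative settings, the highest limma adjusted p-values were 1.68e-05 for Hjurp in monocytes and 0.0129 in macrophages, but 0.0617 for Cdc25b, 0.0778 for Knl1, 0.0682 for Espl1 and 0.109 for Rbl2, which lost their calls.

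The 20 S phase genes, used for comparison, were all called higher in macrophages in both genotypes, with medians of 1.36 in wild type and 1.82 in C3-/-. Of all genes tested, 31.7% were higher in wild type and 31% in C3-/-. Mcm5, a subunit of the replicative helicase, averaged 2850 ± 213 reads in wild-type macrophages and 625 ± 91.2 in wild-type monocytes (1.56 ± 0.07, limma adjusted p = 1.12e-08). In C3-/- mice Mcm3, another subunit, averaged 5286 ± 764 in macrophages and 877 ± 93.4 in monocytes (1.84 ± 0.08, limma adjusted p = 3.76e-09), and Mcm6 and Mcm7 of the same helicase differed by 2.05 and 1.81. In C3-/- monocytes none of the 20 was called by limma (4 at an unadjusted p under 0.05, median -0.19, all 20 below 0). Of all 12867 genes tested there, 2240 had an unadjusted p under 0.05. In C3-/- macrophages all 20 differences were above 0, with a median of 0.15, and 2 rose: Mcm4 (0.33 ± 0.07, limma adjusted p = 0.0182) and Mcm3 (0.28 ± 0.07, limma adjusted p = 0.0491). Their highest adjusted p-values over the alternatives were 0.0523 and 0.124. Of all 12568 genes tested in macrophages, 323 were called higher in C3-/-. Beside the 20 positive S phase differences, 25 of the 33 mitosis genes had negative differences in macrophages, as did 6172 of all 12568 genes tested. Of these 33 genes, 0 had an unadjusted p under 0.05 (limma). The sign of their median turned positive without wild-type library 1 or without C3-/- library 8. The S phase and mitosis genes were not tested against each other.

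Of 11 cell cycle inhibitors tested, 7 were lower and 4 higher in macrophages than in monocytes in both genotypes. Of all genes tested, 31.7% were lower and 31.7% higher in wild type, and 29.6% were lower and 31% higher in C3-/-. Cdkn2d, an inhibitor of CDK4 and CDK6, averaged 707 ± 59.9 reads in wild-type macrophages and 2493 ± 198 in wild-type monocytes (-1.30 ± 0.06, limma adjusted p = 8.38e-09), and Btg1, an antiproliferative gene, 10224 ± 826 and 30587 ± 3388 (-1.13 ± 0.06, limma adjusted p = 5.15e-08). In monocytes 2 of the 11 fell in C3-/-: Cdkn1b, which encodes the p27 inhibitor, at 558 ± 71.7 against 789 ± 49.1 reads (-0.37 ± 0.08, limma adjusted p = 0.023), and Btg2 (-0.37 ± 0.09, limma adjusted p = 0.0476), named after its value was seen. Over the alternatives their highest adjusted p-values were 0.074 and 0.141. Of all genes tested in monocytes, 1.92% were called lower in C3-/-. None of the 11 was called in macrophages (limma, 3 at an unadjusted p under 0.05, as were 2540 of all 12568 genes tested).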

How the data were processed

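RNA of sorted cells was sequenced from SMART-Seq v4 libraries made from 5 ng of RNA each, per the labels' protocols. This kit does not mark strand. Per the submitters' processing notes, the build was GRCm38 and the tools were STAR 2.7.2b, bcl2fastq 2.19.0.316 and DESeq2. No source used here gives their roles or the annotation. The authors deposited log2 values for 30819 genes in 16 libraries, without naming the transform in the header. By their values they are regularized logarithms, in which low counts are drawn together. Per the file headers, the authors' deposited comparison tables hold a base mean (a signal), log2 fold changes with standard errors, a test statistic (a score), and p-values and adjusted p-values. They are given as wild type against knockout and turned here to knockout minus wild type.

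Inverting this transform with the deposited base mean gave back the reads. Within a tolerance of 0.05, 82.8% of the values came out as whole reads over the 20443 genes whose base mean reached 1 (97.4% at base means of 10 to 100, and 46.2% among the most abundant genes). Intervals and tests cover the spread between mice. Gene models and lengths are those of GENCODE vM21 (GRCm38), and promoters are those of RefSeq (GRCm38.p6).

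R 4.3.3 and limma 3.58.1 (trend, robust) were fitted to the deposited log2 values of all genes with a linear value of at least 10 in at least 4 libraries. The 8 libraries of a comparison entered its fit, and all 16 entered that of the difference of effects. The main fits held no mouse block. Those between cell types and of the difference of effects thus treated both libraries of a mouse as independent. Calls required an adjusted p under 0.05 (Benjamini-Hochberg, over all genes tested). The smallest two-sided p of an exact permutation test is 0.0286 with 4 libraries a group. The code was tested on simulated data. The members and the other lists were chosen with earlier results of these data known, so no p-value is given over a list. All members could be named. From other lists, at most 4 called genes per comparison with the smallest adjusted p were named, with defining markers and the exceptions stated.

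Mouse numbers pair the libraries because both cell types came from the same animal, per the labels. Deviations from the group means correlated at 0.417, 0.107, 0.0306 and 0.207 between both libraries of wild-type mice and at 0.0517, 0.0837, 0.211 and 0.0832 in C3-/- mice. Alternatives were no filter, TMM scaling, voom on recovered reads, 1 fit of all 16 libraries, a mouse block, the authors' tables and leaving out each library or mouse. Pseudogene copies were taken as transcripts that match at 95% identity or more over at least 300 bases.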

Additional observations from a re-analysis of the deposited data

Results flagged for a closer look

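Within each group of 4 libraries, the gap between the most extreme library and its nearest neighbour was compared with the range of the group for each of the 33 genes. In 11 cases over 132 groups of values the ratio was above the critical value of Dixon's test for 4 samples, and chance alone gives about 1 in 20. All 11 were in macrophages. C3-/- library 8 was far below the other 3 for Ube2c (ratio 0.967), Cdk1 (0.87), Ttk (0.849), Bub1 (0.835) and Cdca8 (0.83). Wild-type library 2 was far below the others for Mki67 (0.905), Bub1b (0.87) and Kif2c (0.845). Wild-type library 1 was far above the others for Cdk1 (0.935), Mad2l1 (0.86) and Ccna2 (0.859). Genes in one library are not independent of each other, so these cases describe 3 libraries.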

How the results depend on the processing

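The higher level of the 33 genes in macrophages kept its count under each alternative run in wild type (33 of 33), and in C3-/- mice it was 32 or 33, with Cenpa lost without mouse 6 (adjusted p = 0.105). With voom on the recovered reads the medians moved to 2.20 in wild type, 3.04 in C3-/-, -0.87 for C3-/- monocytes and -0.79 for the difference of effects. The count of genes lower in C3-/- monocytes, 4 in the fit described, was 2 without the filter on low values, 9 when a joint fit of 16 libraries was used, and 23 by the authors' deposited table, where the median was -0.94. The cause of the gap to that table was not tested. Leaving out each library gave 1 to 6 calls and medians from -0.71 to -0.38. With a replicate block for the mouse, the difference of effects gave 1 call, and the block changed no other count of members. TMM scaling changed no count of called members. For single genes in C3-/- monocytes, 17 results lost their call and 29 gained it under an alternative. Signs differed without a call on either side in 57 results in macrophages, 2 in monocytes and 6 in the difference of effects. No called result changed sign. With 4 mice a group, the 95% intervals of single members in macrophages ran from as low as -0.52 to as high as 0.41, and their width differed between genes (Bub1b -0.19 to 0.22).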
